A study of Mus musculus with 22 samples.

Results

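Stra8 and 8 genes of retinoid handling and response (Rara, Rarb, Rarg, Aldh1a2, Crabp1, Crabp2, Dhrs3 and Cyp26a1) were followed through RNA-seq gene counts of 22 libraries of mouse embryonic stem cells. These 9 genes were taken from 47729 counted genes. They are a named list, and Stra8 was chosen by its measured difference between cell lines in earlier results of these data. Its differences between lines, and its response to treatment, which uses the same control libraries, are therefore given below as a description, without a test. The untreated libraries came from E14, a mouse embryonic stem cell line (3 libraries), from Dux-KO clones 15, 22 and 52, and from Dux (n=1) clones 17, 22, 31 and 40, both made with CRISPR-Cas9. Dux is a cluster of repeated genes that encode an activator of 2-cell embryo genes; the knockout removed it and, going by the label, the n=1 lines keep 1 copy. The treated libraries came from WT cells and from the lines titled Dux-KO22 and Dux-N22, here KO22 and N22, with 2 libraries each of DMSO, the solvent control, and of GSK-3484862, a small molecule that blocks DNMT1 (the enzyme that copies DNA methylation at replication) and leads to its loss, for 3 days. The dose is given as 1 uM in the treatment protocol and as 2 uM in the design text. KO22 and N22 were read as 1 clone each, so in the treated libraries genotype and clone cannot be told apart, and the labels do not say whether WT is E14. All cells grew in medium with serum and LIF, and no retinoic acid is named among its components.

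Retinoic acid is made from vitamin A in steps: retinol is oxidised to retinal, and retinaldehyde dehydrogenases such as Aldh1a2 turn retinal into retinoic acid. Carrier proteins (Crabp1, Crabp2) bind it in the cell, receptors (Rara, Rarb, Rarg) paired with retinoid X receptors bind DNA at direct repeats of a short half-site, and Cyp26a1 and Dhrs3 limit the signal. Stra8 was named for its induction by retinoic acid and is needed for germ cells to enter meiosis; it is also held silent in embryonic stem cells by a Polycomb-type complex built around Mga, Max, E2f6 and Pcgf6. Rarb, Cyp26a1 and Dhrs3 are textbook direct targets that respond quickly to added retinoic acid.

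Promoter sequence from RefSeq (GRCm38.p6, 250 bases before to 50 after the annotated start) was found for 8 of the 9 genes. It was searched on both strands for the half-site AGGTCA, its variant GGGTCA, the half-site AGTTCA, its variant GGTTCA, and for DR1, DR2 and DR5, which are 2 such half-sites in tandem with a spacer of 1, 2 or 5 bases. The stretches that hold the matches in Stra8 and in the classical targets are shown 5′ to 3′, with the matched half-sites in capitals. They show how the exact matches in Stra8 differ from those in Rarb and Cyp26a1 in these windows. They lie at chr6:34920742-34920771 and chr6:34920898-34920927 (Stra8, plus strand), chr14:16575506-16575535 (Rarb, minus strand) and chr19:37697770-37697799 (Cyp26a1, plus strand).
Stra8, upstream half-site: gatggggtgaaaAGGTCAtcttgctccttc
Stra8, downstream half-site: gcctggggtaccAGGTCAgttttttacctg
Rarb, DR5: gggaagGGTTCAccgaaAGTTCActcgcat
Cyp26a1, DR5 on the opposite strand: taaagaTGAACTttgggTGAACTaatttgt
The Rarb and Cyp26a1 windows each held 1 DR5, a match found in 0.0974% of all 32851 windows. The Stra8 window held 2 half-sites, at -194 and -38 from the start, and no exact DR1, DR2 or DR5, while 43.7% of all windows held at least 1 half-site. The search took exact matches only. In the upstream Stra8 stretch gggtga, 1 base off the variant GGGTCA, lies 2 bases before AGGTCA, so an imperfect DR2 there was not counted. None of the windows of Rara, Rarg, Crabp1, Dhrs3 and Aldh1a2 held a DR1, DR2 or DR5 either. The Stra8 window also overlaps a 5′ UTR exon of a longer annotated Stra8 transcript, so the start used here is 1 of several.

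Library depth was even, at 15803194 to 19427794 counts in genes per library, and 3 counts, the limit used for a count of 0, correspond to 0.154 to 0.190 CPM, the count of a gene scaled to the library's total count in genes. All 8 embryonic stem cell markers on the list were detected in every group, at a summed 4376 to 6431 CPM. The library labelled Dux-KO clone 22 stood apart from KO22: over 11651 genes the deviations of KO22 DMSO from the mean of all libraries correlated at r = -0.04 with that library and at 0.56 with Dux-KO clone 52. WT DMSO correlated at -0.37 to -0.39 with the E14 libraries and at 0.75 with Dux (n=1) clone 22. N22 DMSO had its highest r, 0.68, with Dux (n=1) clone 22, the clone of its label. These are descriptions across genes, which are not independent, and libraries of a set share their handling. Genes of chromosome 6, which carries Stra8, were higher than other genes relative to E14 by a median of 0.28 to 0.34 (log2) in Dux-KO clones 15 and 52, Dux (n=1) clone 40 and all 4 KO22 libraries, against -0.10 to 0.02 in the other libraries.

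The 9 genes spanned a wide range of levels. Rarg was the most abundant per length, with a median of 87.3 CPM per kilobase of exon over the 22 libraries, followed by Rara at 27.9 and Crabp1 at 15.2. Stra8 had a median of 6.11, Crabp2 2.75 and Aldh1a2 0.93 CPM per kilobase. Dhrs3 (0.25), Cyp26a1 (0.22) and Rarb (0.09) were the lowest, with 8 to 44, 0 to 19 and 1 to 10 counts per library. Retinoic acid receptor transcripts were therefore mainly Rarg and Rara. Rarb did not pass the filter on low counts in either set of libraries, and Cyp26a1 did not pass it among the untreated ones.

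Stra8 (ENSMUSG00000029848, chr6:34920163-34939344, plus strand) was low and even in E14, at 2.38, 2.26 and 2.19 CPM. All 7 edited clones were above E14. The Dux-KO clones had 84.4 (clone 15), 9.42 (clone 22) and 22.4 CPM (clone 52), and the Dux (n=1) clones 20.3 (clone 17), 32.3 (clone 22), 5.82 (clone 31) and 10.2 CPM (clone 40). The 2 genotypes overlapped: the lowest edited clone was 2.45-fold above the highest E14 library, and the edited clones spanned 14.5-fold among themselves against 1.09-fold in E14. The log2 difference from E14 was 4.01 in Dux-KO and 2.85 in Dux (n=1). Clone 15 carried much of the first value, which was 2.77 without it; leaving out the library labelled Dux-KO clone 22 instead gave 4.46. Dux (n=1) was 1.16 below Dux-KO on the log2 scale, and 0.11 above it without Dux-KO clone 15. The 3 untreated clones with raised chromosome 6 genes were the highest, the third and the fifth of the 7 in Stra8, and the part of the chromosome in its level was not tested.

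**Figure D1:**
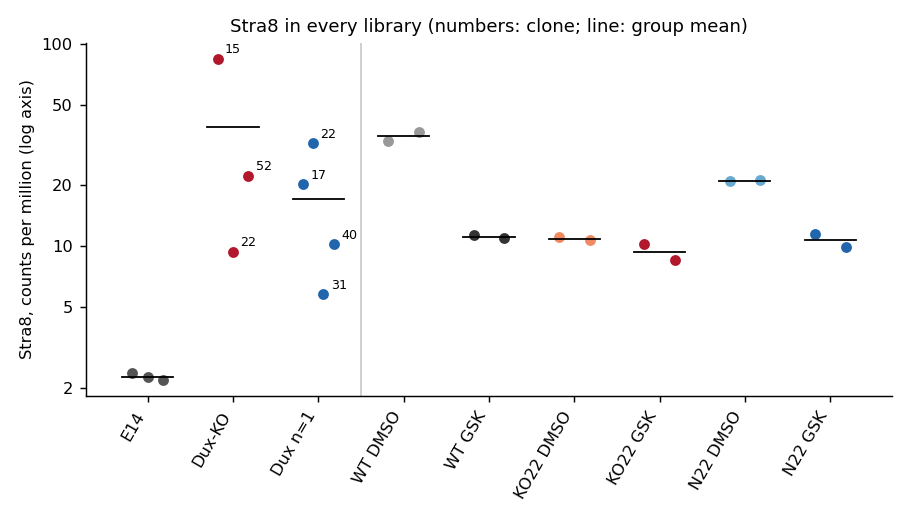
Stra8 in CPM (log axis) in each of the 22 libraries, by group, with clone numbers for the edited untreated lines and a line at the group mean; the vertical line separates untreated from treated libraries. E14 lies at 2.19 to 2.38, the edited clones spread from 5.82 to 84.4, and the 6 GSK-3484862 libraries sit between 8.60 and 11.5.

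In the treated set Stra8 differed between the DMSO libraries of the 3 lines by more than between the libraries of a line. WT DMSO had 33.2 and 36.8 CPM, N22 DMSO 21.1 and 21.2, and KO22 DMSO 11.1 and 10.8. The 3 lines did not overlap, and WT was 3.20-fold above KO22 and 1.65-fold above N22. The log2 difference of Stra8 from WT was -1.69 in KO22 and -0.73 in N22. Here the edited lines were below WT, whereas in the untreated set they were above E14. WT DMSO was 15.4-fold above E14, and only the treated set was given DMSO. With GSK-3484862 the line differences closed: WT had 11.3 and 11, KO22 10.2 and 8.60, and N22 11.5 and 9.97 CPM, so the 6 libraries lay within 1.33-fold, against 3.40-fold with DMSO.

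The log2 difference of Stra8 with GSK-3484862 from DMSO was -1.71 ± 0.11 in WT, -1.03 ± 0.12 in N22 and -0.23 ± 0.13 in KO22. In each line both GSK-3484862 libraries were below both DMSO libraries. The difference was less negative than in WT by 1.48 in KO22 and by 0.68 in N22 on the log2 scale. Ordered by mean level, the groups ran from E14 (2.28 ± 0.10 CPM, SD, n = 3) through KO22 GSK (9.42 ± 1.15, n = 2), N22 GSK (10.7 ± 1.05, n = 2), KO22 DMSO (10.9 ± 0.18, n = 2) and WT GSK (11.1 ± 0.26, n = 2) to Dux (n=1) (17.2 ± 11.8, n = 4), N22 DMSO (21.1 ± 0.09, n = 2), WT DMSO (35.0 ± 2.58, n = 2) and Dux-KO (38.7 ± 40.1, n = 3). Neighbours in this order overlapped in their libraries except E14 with KO22 GSK and N22 DMSO with WT DMSO.

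Among the untreated lines 6 of the other retinoid genes were tested, too few to read their count against the share over all genes. Of the 6, 0 passed in Dux-KO against E14, where 20.4% of all 14796 genes did, and 0 in Dux (n=1) against E14, where 9.16% did. edgeR gave none of the 6 an unadjusted p under 0.05 in either comparison, and DESeq2 called 0. The largest log2 difference of Dux-KO from E14 among them was 0.62 ± 0.39 for Crabp1 (adjusted p = 0.283), and the median of the 6 was 0.36 against 0.02 over all genes. Rara was 0.30 ± 0.15 higher (adjusted p = 0.174) and Rarg 0.16 ± 0.20 (adjusted p = 0.596). Rarb had 1 to 6 counts in E14 and 2 to 10 in the edited clones, and Cyp26a1 6 to 19 and 0 to 8. Between Dux (n=1) and Dux-KO edgeR called 0 genes of any kind (856 at an unadjusted p under 0.05, and 0 with DESeq2), and none of the 6 was among the 856.

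**Figure D2:**
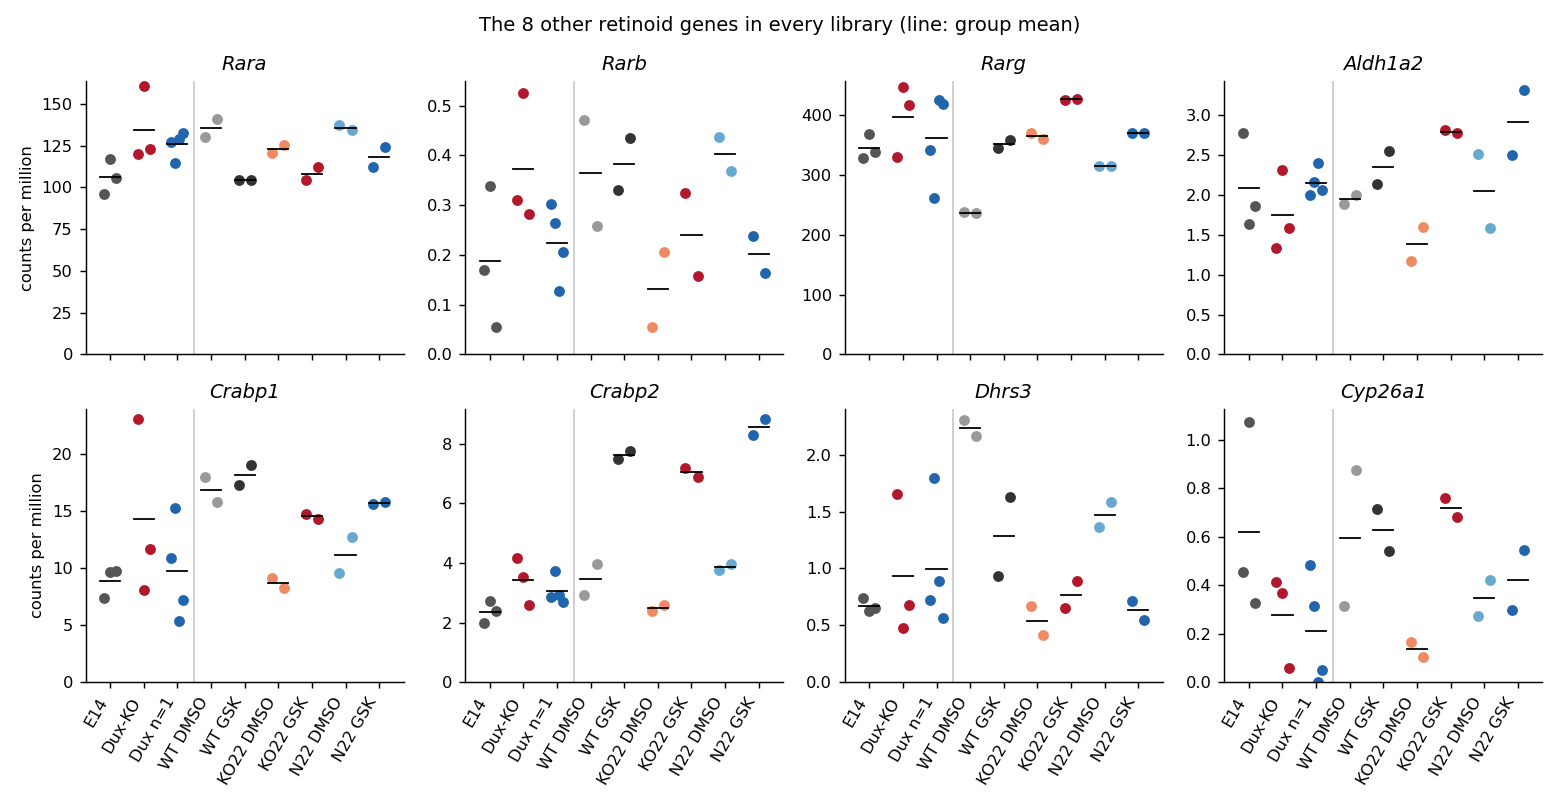
The other 8 retinoid genes in CPM (linear axes from 0) in each of the 22 libraries, by group, with a line at the group mean. Crabp2 is at 6.87 to 8.83 in all GSK-3484862 libraries against 2.39 to 3.96 in the DMSO ones, while Rarb and Cyp26a1 stay near the detection limit throughout.

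Within the 7 edited clones 1 gene ran with Stra8 almost point for point. Crabp1, the carrier that holds retinoic acid in the cytoplasm, had 5.38 CPM in Dux (n=1) clone 31, 8.05 in the library labelled Dux-KO clone 22, 7.23 in Dux (n=1) clone 40, 10.9 in Dux (n=1) clone 17, 11.7 in Dux-KO clone 52, 15.3 in Dux (n=1) clone 22 and 23.1 in Dux-KO clone 15, listed here in the order of rising Stra8. A single pair of neighbours was out of order. Over the 7 clones r was 0.99 (exact two-sided permutation p = 0.000595, adjusted over 8 genes p = 0.00476) and Spearman's rho 0.96 (exact permutation p = 0.00278, adjusted p = 0.0111). Stra8 and the list were chosen with earlier results of these same data known. The p-values of this and the following correlations therefore describe the pairing within these clones and are no independent test. Without the 2 clones farthest from the Stra8 median, Dux-KO clone 15 and Dux (n=1) clone 31, r was 0.97 over 5 clones, and without each clone in turn it was 0.985 to 0.997. Of 14795 tested genes, 2 had an r with Stra8 at or above this value, Crabp1 included, which is 0.0135%. E14 stood off the line, with 7.36, 9.61 and 9.73 CPM of Crabp1 beside the lowest Stra8 of all.

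Aldh1a2, the retinoic acid synthesising enzyme, ran the other way over the same clones: it was lowest in Dux-KO clone 15 (1.34 CPM) and highest in Dux (n=1) clone 31 (2.40 CPM). These values rest on 26 to 44 counts per clone. The libraries of the single line E14 ran from 1.64 to 2.78 CPM (29 to 49 counts), so the spread over the clones was no wider than within 1 line. The r of Aldh1a2 with Stra8 was -0.88 (exact permutation p = 0.00575, adjusted p = 0.0230) and rho -0.96 (exact permutation adjusted p = 0.0111). With library totals as scale rho was -0.79 and did not pass (exact permutation, adjusted p = 0.0960). This relation rested partly on clone 15: without it r was -0.70 (exact permutation p = 0.0903), and without the 2 farthest clones -0.57. Of the tested genes 3.54% had an r at least as low. Rarg and Rara also tended to be lower where Stra8 was higher, with r = -0.71 and -0.66 (exact permutation, adjusted p = 0.18 for both) and rho = -0.89 and -0.86 (exact permutation, adjusted p = 0.0328 and 0.0476). With library totals as scale the rho of Rara did not pass (exact permutation, adjusted p = 0.0635), while that of Rarg did (0.0492). Of all tested genes 13.3% and 16.7% had an r at least that low. The r of Dhrs3 (0.69), Cyp26a1 (0.58), Crabp2 (0.48) and Rarb (0.23) did not pass (exact permutation, adjusted p = 0.18 to 0.649). Of the genes that retinoic acid is best known to induce, none passed in the direction of Stra8.

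**Figure D3:**
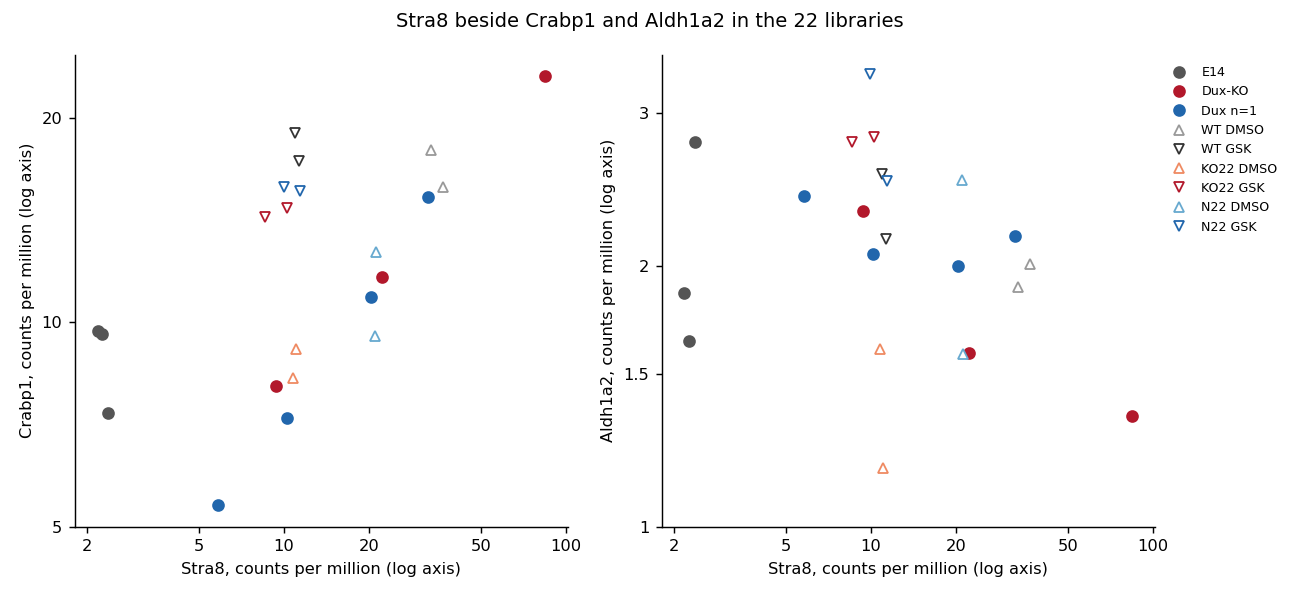
Crabp1 (left) and Aldh1a2 (right) against Stra8, all in CPM on log axes, 1 point per library; filled circles are untreated, open triangles pointing up are DMSO and pointing down GSK-3484862. The edited untreated clones and the DMSO libraries rise together in the left panel, and the GSK-3484862 libraries leave that line, with Stra8 at 8.60 to 11.5 and Crabp1 at 14.3 to 19.0.

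The DMSO libraries of the 3 lines had the same order for both genes. Crabp1 was at 17.9 and 15.8 CPM in WT, 9.56 and 12.7 in N22 and 9.12 and 8.28 in KO22. It was lower than in WT by 0.97 ± 0.13 (log2) in KO22 (edgeR, adjusted p = 1.05e-09) and by 0.60 ± 0.12 in N22 (adjusted p = 0.000103). WT did not overlap with either line, while the KO22 and N22 values lay close together. Of the 7 retinoid genes tested, KO22 differed from WT in 5, with 4 lower and 1 higher, where 51.9% of all 16641 genes were called (28.5% lower, 23.4% higher). N22 differed from WT in 2, with 1 lower and 1 higher, where 25.4% were called (13.9% lower, 11.5% higher). Dhrs3, the retinaldehyde reductase, had 2.31 and 2.16 CPM in WT and 0.67 and 0.41 in KO22, a difference of -2.06 ± 0.45 (log2, adjusted p = 2.66e-05). Cyp26a1, the retinoic acid hydroxylase, gave 6 and 17 counts for WT, with 3 and 2 for KO22 (-2.12 ± 0.87, adjusted p = 0.0179), a call lost without WT DMSO replicate 2 (adjusted p = 0.379) or either KO22 DMSO replicate, and with DESeq2 (0.0746). Rarg was higher, at 238 and 236 CPM in WT against 369 and 359 in KO22 (0.60 ± 0.03, adjusted p = 3.48e-24) and 315 and 315 in N22 (0.41 ± 0.03, adjusted p = 1.89e-15). Rara was 0.16 ± 0.05 lower in KO22 (adjusted p = 0.00527), a call lost with DESeq2 (0.0736), with a GC content offset (0.145) and without KO22 DMSO replicate 1 or WT DMSO replicate 2.

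With GSK-3484862 the retinoid genes did not move as 1 group, and Crabp2 and Rarg rose in all 3 lines while Rara fell in all 3. In WT 2 of the 7 tested rose and 2 fell, where 56.8% of all genes were called (28.7% higher, 28.1% lower). In KO22 5 rose and 1 fell, where 46.0% were called (24.8% higher, 21.2% lower), and in N22 3 rose and 2 fell, where 53.0% were (26.9% higher, 26.0% lower). The share in WT is near that over all genes. The median log2 change of the 7 was 0.04 in WT, 0.73 in KO22 and 0.24 in N22, against 0.00 over all genes in each.

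Crabp2, which hands retinoic acid to its receptors in the nucleus, rose in every line. It went from 2.94 and 3.96 to 7.48 and 7.76 CPM in WT (1.08 ± 0.19 on the log2 scale, adjusted p = 1.11e-06), from 2.39 and 2.59 to 7.20 and 6.87 in KO22 (1.48 ± 0.21, adjusted p = 3.56e-09) and from 3.77 and 3.96 to 8.29 and 8.83 in N22 (1.10 ± 0.18, adjusted p = 5.21e-07). No DMSO library overlapped with a GSK-3484862 library. The receptors moved by less and in opposite directions: Rarg rose by 0.50 ± 0.03 in WT (adjusted p = 1.46e-20), 0.22 ± 0.03 in KO22 (1.98e-07) and 0.18 ± 0.03 in N22 (7.46e-06), while Rara fell by 0.44 ± 0.05 (1.39e-11), 0.19 ± 0.05 (0.000967) and 0.25 ± 0.05 (2.00e-05). With a GC content offset the rise of Rarg in KO22 was 0.07 (adjusted p = 0.0721). Rarb stayed at 3 to 8 counts per library with GSK-3484862.

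**Figure D4:**
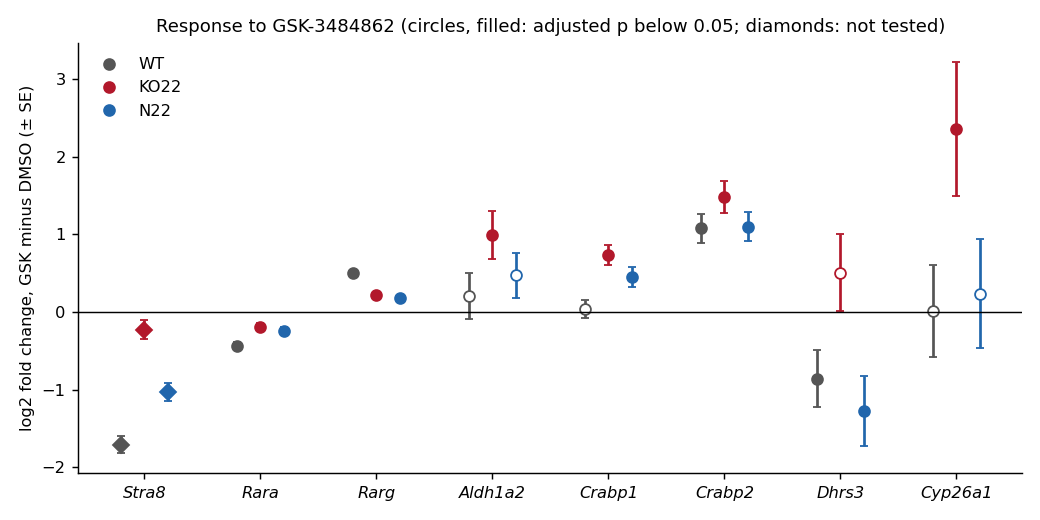
Log2 fold change of GSK-3484862 over DMSO, with its standard error, for Stra8 and the 7 other genes tested, in WT, KO22 and N22 (2 libraries against 2 in each); filled circles passed the adjusted p threshold of 0.05, and Stra8, drawn as diamonds, was not tested. Stra8 is at -1.71, -0.23 and -1.03, and Crabp2 is between 1.08 and 1.48 in all 3 lines.

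Crabp1 parted from Stra8 under the degrader. In WT it was at 17.3 and 19.0 CPM with GSK-3484862 (0.04 ± 0.12, adjusted p = 0.776) while Stra8 was lower than with DMSO, and it rose in KO22 to 14.7 and 14.3 CPM (0.73 ± 0.13, adjusted p = 2.83e-06) and in N22 to 15.6 and 15.8 (0.45 ± 0.12, adjusted p = 0.00181). The N22 call was lost without N22 DMSO replicate 1 (adjusted p = 0.142). The KO22 response exceeded that of WT by 0.69 ± 0.17 (interaction, adjusted p = 0.00127), and the excess in N22 did not pass (0.41 ± 0.17, adjusted p = 0.123). Of the 7 genes 2 had a higher and 1 a lower response in KO22 than in WT, where 31.8% of all genes were called (18.3% higher, 13.5% lower), and 0 a higher and 1 a lower response in N22, where 11.1% were called (5.82% higher, 5.26% lower). The response of Rarg was smaller than in WT by 0.29 ± 0.05 in KO22 (adjusted p = 1.85e-06) and by 0.32 ± 0.05 in N22 (adjusted p = 8.85e-07). Over all 12 treated libraries the r of Crabp1 with Stra8 was 0.14, and over the 10 untreated ones 0.70, given as a description.

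The genes that limit retinoic acid were measured from few counts. Dhrs3 went from 2.31 and 2.16 to 0.93 and 1.63 CPM in WT (-0.86 ± 0.37, adjusted p = 0.0385) and from 1.37 and 1.58 to 0.72 and 0.55 in N22 (-1.27 ± 0.45, adjusted p = 0.0115), and was at 0.65 and 0.89 in KO22 (0.51 ± 0.50, adjusted p = 0.421). The WT call was lost in 5 of 10 alternatives, among them DESeq2 (adjusted p = 0.20) and the fit without WT GSK replicate 1 (0.345), and the N22 call in 3, without N22 DMSO replicate 2 (0.0708) or N22 GSK replicate 2 (0.105) and with DESeq2 (0.0696). Cyp26a1 had 3 and 2 counts in KO22 DMSO and 14 and 13 with GSK-3484862 (2.36 ± 0.86, adjusted p = 0.00767; 0.0851 without KO22 DMSO replicate 2), with no call in WT (0.01 ± 0.59) or N22 (0.24 ± 0.71). Aldh1a2 rose in KO22, from 1.17 and 1.6 to 2.82 and 2.78 CPM (0.99 ± 0.31, adjusted p = 0.00500; 0.0800 without KO22 DMSO replicate 1).

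Further genes of the pathway, 57 on a list of receptors, transport, synthesis, breakdown, coregulators and targets, were set beside these; 56 were in the table, 37 were tested untreated and 43 treated. In Dux-KO against E14 3 were higher and 3 lower, where 9.26% and 11.1% of all genes were, and in Dux (n=1) 0 were higher and 1 lower (4.88% and 4.28%). Among those higher in Dux-KO were the target genes Cdx1, a homeobox gene of the posterior body, and Ppard, a nuclear receptor. Cdx1 was at 3.39 to 4.01 CPM in E14, at 25.9, 4.21 and 20.9 in Dux-KO clones 15, 22 and 52, and at 4.66 to 12.4 in Dux (n=1), and it was 2.15 ± 0.53 (log2) higher in Dux-KO (adjusted p = 0.0183). Ppard was 0.43 ± 0.12 higher (adjusted p = 0.0240). Without Dux-KO clone 15 both lost the call (adjusted p = 0.0640 and 0.0633), as they did without E14 replicate 1 or 3 and with a GC content offset (0.0722 and 0.0955). Cdx1 also lost it without E14 replicate 2 (0.0566) or Dux-KO clone 52 (0.0531) and with no filter on low counts (0.0826). Cdx1 was high in KO22 DMSO too, at 21.9 and 21.8 CPM against 7.29 and 6.18 in WT.

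A pair of target genes had the highest r with Stra8 over both sets of libraries on the target list, given as a description. Bhlhe40, a transcriptional repressor first found as a retinoic acid response gene, was at 4.70 to 6.05 CPM in E14, at 49.1, 11.5 and 17.9 in Dux-KO clones 15, 22 and 52 and at 9.75, 78.3, 5.25 and 6.97 in Dux (n=1) clones 17, 22, 31 and 40. It fell from 73.0 and 80.2 to 9.73 and 10.0 CPM with GSK-3484862 in WT (-3.02 ± 0.10, adjusted p = 1.89e-39) and from 54.8 and 51.5 to 8.89 and 10.2 in N22 (-2.52 ± 0.10, adjusted p = 4.30e-34). In KO22, where it was already at 9.74 and 8.85, it did not (0.25 ± 0.11, adjusted p = 0.0625). Tgm2, tissue transglutaminase, was at 2.89 to 4.92 CPM in E14, 24.9, 4.21 and 6.45 in Dux-KO clones 15, 22 and 52, and 9.62, 13.4, 5.57 and 3.82 in Dux (n=1) clones 17, 22, 31 and 40. It fell in WT (-1.51 ± 0.15), KO22 (-0.83 ± 0.18) and N22 (-0.65 ± 0.16), with adjusted p = 4.64e-14, 6.56e-05 and 0.000485. In the untreated set neither passed (Dux-KO against E14, adjusted p = 0.112 for Bhlhe40 and 0.111 for Tgm2).

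Target genes went in both directions with GSK-3484862, as did genes as a whole, of which 28.7% rose and 28.1% fell in WT, 24.8% and 21.2% in KO22 and 26.9% and 26.0% in N22. Of 21 target genes tested, 8 rose and 9 fell in WT, 8 and 6 in KO22 and 7 and 8 in N22, with a median log2 change of -0.13, 0.52 and 0.02 against 0.00 over all genes. Hic1, a zinc finger repressor, rose in all 3 lines (1.95 ± 0.22 in WT, 2.45 ± 0.24 in KO22 and 2.73 ± 0.25 in N22). Cdx1 fell in all 3 (-0.44 ± 0.17, -1.28 ± 0.14 and -0.91 ± 0.19). Beside the same shares, of the 43 pathway genes 16 rose and 12 fell in WT, 20 and 8 in KO22 and 18 and 12 in N22. Rxra, a partner receptor, rose by 0.99 ± 0.08, 0.41 ± 0.08 and 1.16 ± 0.09, and Rdh11, a retinol dehydrogenase, fell by 1.29 ± 0.08, 0.41 ± 0.08 and 0.93 ± 0.08. Stra6, the cellular retinol importer, rose in KO22 (2.14 ± 0.65, adjusted p = 0.00223) and N22 (1.18 ± 0.53, adjusted p = 0.0494), with 0.32 ± 0.50 in WT (adjusted p = 0.603). Between lines its group means had the order of Stra8, from 0 to 37 counts per library. They were 0.02 CPM in E14, 0.34 in Dux (n=1) and 0.84 in Dux-KO, where it was not tested. With DMSO they were 0.75 in WT, 0.51 in N22 and 0.24 in KO22. Stra6 was called lower in KO22 than in WT with DMSO, but not by DESeq2 (log2 difference -1.64, adjusted p = 0.0824). The log2 difference was -1.27 without KO22 DMSO replicate 1 and -1.25 without WT DMSO replicate 2. The N22 call for Stra6 was lost with no filter on low counts (0.0757), a GC content offset (0.0522) and DESeq2 (0.164), and without N22 DMSO replicate 1 (0.387) or N22 GSK replicate 1 (0.323). Adh7, an alcohol dehydrogenase that can oxidise retinol, had 0 and 0 counts in KO22 DMSO and 17 and 14 with GSK-3484862, and 5 and 2 against 41 and 48 in WT.

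**Figure D5:**
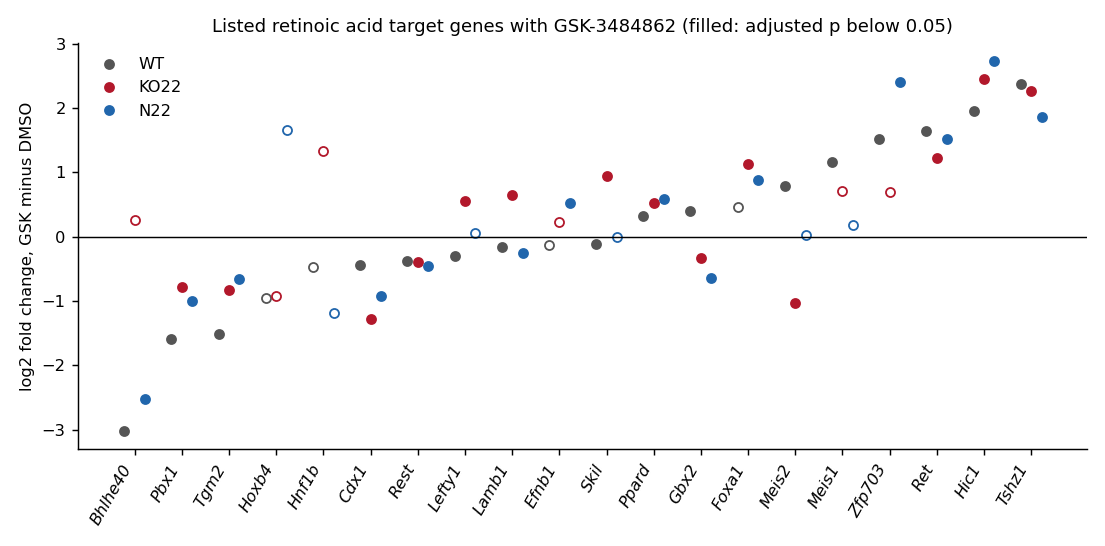
Log2 fold change of GSK-3484862 over DMSO for tested retinoic acid target genes, ordered by the change in WT, in WT, KO22 and N22; filled points passed the adjusted p threshold of 0.05. In WT Bhlhe40 is at -3.02 and Hic1 at 1.95, and genes lie on both sides of 0 in every line.

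Marker genes of several other cell types moved with the treatment as well. The 6 primitive endoderm markers summed to 6.61 to 7.26 CPM in WT DMSO and 16.3 to 16.8 with GSK-3484862, the 5 neural markers to 31.5 to 32.8 and 52.9 to 54.9, and the 8 embryonic stem cell markers to 5725 to 5804 and 4384 to 4419. The 6 fibroblast markers summed to 1.84 to 2.88 CPM in WT DMSO and 4.67 with GSK-3484862. In KO22 they summed to 2.33 to 2.45 and 6.82 to 8.12, and in N22 to 2.35 to 2.69 and 4.03 to 6.68. Both tested members, Col1a1 and Col1a2, were called higher in each line by edgeR. DESeq2 did not call Col1a1 in WT (adjusted p = 0.0804) or N22 (0.0617), or Col1a2 in KO22 (0.121). The log2 rise of Col1a1 was 0.43 in WT without WT DMSO replicate 1, and 0.42 in N22 without N22 GSK replicate 1. Col3a1, Dcn, Lum and Postn had 0 counts in WT and KO22 DMSO, and Dcn, Lum and Postn in N22 DMSO. The 6 germ cell markers summed to 154 to 158 CPM in WT DMSO and 177 to 180 with GSK-3484862. In KO22 they summed to 74.6 to 79.7 and 154 to 169 CPM. They did not all rise: in WT 2 were called higher, 1 lower and 3 not at all. In KO22 4 were called higher and 1 lower. The primitive endoderm, neural and trophoblast sums were higher with GSK-3484862 in KO22 and N22 too, without overlap. Single members could differ: of the 6 primitive endoderm markers 3 were called higher and 1 lower in KO22. The sums of the 4 mesoderm markers were higher with GSK-3484862 in WT and KO22. In N22 they overlapped, at 2.18 to 3.59 CPM with DMSO and 1.96 to 2.74 with GSK-3484862. Of the 3 mesoderm markers tested, 0 were called in each line. The part of these cells in the retinoid results was not tested; in bulk RNA fewer cells of a type and less RNA per cell cannot be told apart.

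Of the 12 genes on the list of Stra8 repressors, 0 were higher and 2 lower in Dux-KO against E14, beside 9.26% and 11.1% over all genes. The 2 were Mga and Rnf2, and Rnf2, a ubiquitin ligase of Polycomb complexes, was 0.13 higher with a GC content offset (adjusted p = 0.599). Mga, the scaffold of the repressor complex, had 305, 278 and 279 CPM in E14 and 83.2, 154 and 163 in Dux-KO clones 15, 22 and 52, lower by 1.15 ± 0.21 (log2, adjusted p = 0.00491). In Dux (n=1) it had 195, 198, 169 and 188 CPM in clones 17, 22, 31 and 40 and missed the threshold (-0.65 ± 0.19, adjusted p = 0.0538). The E14 libraries were above every edited clone, and the clone with the lowest Mga, Dux-KO clone 15, was the one with the highest Stra8. The other clones did not follow that order. Within Dux (n=1) clone 31 had the lowest Mga and the lowest Stra8 (5.82 CPM), and clone 22 the highest of both (Stra8 32.3 CPM). Dux-KO clone 22 had less Mga and less Stra8 than clone 52 (Stra8 9.42 against 22.4 CPM). In the DMSO libraries the 2 genes had the same order of lines, with a mean Mga of 253 CPM in WT, 248 in N22 and 225 in KO22. As a description, the r of Mga with Stra8 was -0.88 over the untreated and 0.87 over the treated libraries. The part of Mga in the level of Stra8 was not tested. With GSK-3484862 Mga fell by 0.38 ± 0.04 in WT, 0.24 ± 0.04 in KO22 and 0.39 ± 0.04 in N22 (adjusted p = 4.83e-13, 7.01e-07 and 3.64e-13). Of the 12, 2 rose and 5 fell in WT, where 28.7% and 28.1% of all genes did, 1 and 6 in KO22 (24.8% and 21.2%) and 2 and 7 in N22 (26.9% and 26.0%).

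Genes of meiotic entry and prophase, the programme that Stra8 serves in germ cells, did not move as 1 block. Of 21 tested, 4 were higher and 2 lower in Dux-KO (9.26% and 11.1% of all genes) and 3 and 1 in Dux (n=1) (4.88% and 4.28%) against E14, with a median log2 difference of 0.46 and 0.34 against 0.02 and 0.01 over all genes. Dmrt1, a transcription factor that controls Stra8 in the gonad, was 1.04 ± 0.24 higher in Dux-KO and 1.10 ± 0.22 in Dux (n=1), Stag3, a meiotic cohesin subunit, 1.28 ± 0.27 and 1.15 ± 0.26, and Dmc1, the meiotic recombinase, 1.30 ± 0.31 and 1.39 ± 0.29. The 3 calls in Dux (n=1) were lost without any 1 of the 3 E14 libraries (adjusted p = 0.0636 to 0.111 for Dmrt1, 0.0813 to 0.122 for Stag3 and 0.0573 to 0.115 for Dmc1), and that of Stag3 also without Dux (n=1) clone 17 (0.0675). The Dux-KO call of Dmrt1 was lost without E14 replicate 1 (0.0648). With GSK-3484862 Dmrt1 fell in WT (-0.78 ± 0.05) and N22 (-0.44 ± 0.05) and rose in KO22 (0.29 ± 0.06). Dazl, a germ cell RNA-binding protein, rose in all 3 lines, by 3.04 ± 0.15 in WT, 3.14 ± 0.13 in KO22 and 2.99 ± 0.16 in N22, and Hormad1, a meiotic axis protein, by 2.51 ± 0.15, 1.79 ± 0.13 and 3.17 ± 0.16.

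Genes near Stra8 were counted as a description. Of 40 genes within 1 Mb, 17 were tested untreated; in Dux-KO against E14 1 was higher and 0 lower, with a median log2 difference of 0.19 beside 0.20 for all of chromosome 6. The 1 was Wdr91, the gene next to Stra8 on the opposite strand, whose exons do not overlap those of Stra8, with a mean of 16.9 CPM in E14 and 37.2 in Dux-KO (1.08, adjusted p = 0.0245). In KO22 DMSO against WT, where Stra8 was lower, 13 of 19 tested neighbours were higher and 0 lower, where 23.4% and 28.5% of all genes were; their median was 0.65, beside 0.27 for all of chromosome 6, and Wdr91 was 0.30 higher. With GSK-3484862 Wdr91 changed by -0.23 in WT (adjusted p = 0.00709), -0.08 in KO22 (0.385) and 0.01 in N22 (0.942).

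Ranked by the smaller of the Pearson r with Stra8 over the 10 untreated and over the 12 treated libraries, the genes most like it among 11698 compared included Scarb1 (0.97), Pycr1 (0.96), Cyfip2 (0.96), Mgarp (0.96), Zfp395 (0.95), Tcp11 (0.95) and Ccni (0.95). None of the first 8 is on the retinoid lists or on chromosome 6. Scarb1, a lipoprotein receptor, had a mean of 21.6 CPM in E14, 50.8 in Dux-KO and 47.6 in Dux (n=1), and of 78.0 in WT DMSO against 36.6 with GSK-3484862. By rank correlation 0 of the 8 stayed in the first 8, so the order depends on the measure. On the same scale Bhlhe40 had 0.85, Tgm2 0.84, Dmc1 0.83 and Dmrt1 0.80, whereas Crabp1 had 0.14, Rara 0.14, Crabp2 -0.49, Aldh1a2 -0.53 and Rarg -0.93.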

How the data were processed

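The authors deposited whole-number read counts per gene, 1 table per library. Per the file headers they were made with featureCounts 2.0.1 on paired reads with no strand setting; per the submitters' processing notes fastp 0.23.2, HISAT2 2.1.0 and GRCm38 were used. Without strand, reads of overlapping antisense genes cannot be told apart; no exon of the 9 genes overlaps another gene's. Symbols came from GENCODE M21 (47224 of 47729 IDs). CPM is counts over the library's summed gene counts. Untreated (10) and treated (12) libraries were each fitted once with edgeR 4.0.16 in R 4.3.3 (quasi-likelihood test, TMM factors, filterByExpr at 10 counts), with Benjamini-Hochberg adjustment over all genes tested and a threshold of 0.05; ± after a log2 change is its SE. The test was checked on simulated counts. The labels do not say that replicates are separate cultures, so a p-value here covers the spread between libraries, which may be technical. The differences of Stra8 between groups are given without p, its treatment response included, since its DMSO levels were known when it was chosen. Correlations used log2 CPM with a prior count of 2 and exact permutation. The members and gene lists were chosen with earlier results of these data known; all 9 members are reported, and of each list at most 3 called genes of smallest p per comparison, their values in other comparisons beside them; genes most like Stra8 are the 8 with the largest smaller r. Alternatives were DESeq2 1.42.0, RLE factors, no count filter, only the compared groups, a GC content offset, a replicate block, and each library left out. A few listed genes are counted but not reported by name here.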

Additional observations from a re-analysis of the deposited data

Results flagged for a closer look

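The response to GSK-3484862 differed between lines, by the interaction term of the edgeR fit, for 3 of the 7 retinoid genes tested besides Stra8. Against WT, KO22 differed by 0.69 (log2) for Crabp1, by 0.24 for Rara (adjusted p = 0.00501) and by -0.29 for Rarg, and N22 differed by -0.32 for Rarg. The Rara difference was not called with DESeq2 (adjusted p = 0.0632), with a GC content offset (0.223), or without WT DMSO replicate 2 (0.0811) or KO22 GSK replicate 2 (0.0605). All of these comparisons share the WT libraries, and genotype and clone cannot be told apart in them. No member had a clone standing apart from the other 3 in Dux (n=1), the 1 group large enough for that check.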

How the results depend on the processing

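Each log2 change of a member was refitted under alternatives: 829 values were labelled unchanged, 24 lost the call, 6 gained it, and 1 was labelled reversed. Unchanged meant the same side of the threshold, and the same direction where both fits called the gene. Direction was not compared where neither fit called it, as for Rarg in Dux-KO against E14 (-0.15 to 0.31). For Stra8, which has no test, unchanged meant the same direction and a shift below the largest SD of its log2 CPM. The value labelled reversed was Stra8 in Dux (n=1) against Dux-KO, at 0.11 without Dux-KO clone 15 (-1.62 to 0.11 with 1 library left out). Of the listed genes reported here, Rnf2 in Dux-KO against E14 reversed with a GC content offset (0.13). Genes called in Dux-KO against E14 numbered 1037 with that offset and 931 to 3572 with 1 library left out; in Dux (n=1) against E14, 312 with the offset, 2450 with only the compared groups, 2426 with DESeq2, and 24 to 1237 with 1 library left out (24 without E14 replicate 1, 52 without replicate 3). DESeq2 called 2711 genes in N22 against WT with DMSO (2811 to 3048 with 1 library left out), 1026 in the N22 interaction, and 3 retinoid genes in KO22 against WT with DMSO (3 to 6 with 1 library left out); in the N22 interaction 1 to 2 retinoid genes were called with 1 library left out. The cause was not tested. The r of Stra8 with Aldh1a2 was -0.82 (adjusted p = 0.0714) with library totals as scale, and -0.93 to -0.70 with 1 clone left out, an alternative chosen after seeing the data. Without the 2 farthest clones r was -0.57 for Aldh1a2, 0.16 for Cyp26a1, -0.067 for Crabp2 and -0.42 for Rarb.

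Same-numbered treated libraries did not deviate together (r of deviations -0.02 to 0.03 over 15 pairs of groups), so the number was not used as a pairing. With 2 libraries per group, and genes of few counts included, this check cannot exclude a shared culture or day. With the replicate number as a block 9459 genes were called in WT, 7683 in KO22 and 8788 in N22 with GSK-3484862, and the retinoid counts were unchanged at 4, 6 and 5. Among the untreated libraries no such block was possible, because their groups share fewer than 2 replicate numbers. Counts of 0 to 19 limit Rarb and Cyp26a1, for which only large changes were detectable at this depth.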
